A study of Mus musculus with 20 samples.

Results

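The 8 genes described here code for the adaptors, receptors, kinases, scaffold and phospholipase of ITAM signalling, the pathway that costimulates the receptor RANK in cells that become osteoclasts. They were taken by symbol from the deposited expression table, with earlier results of these data known, and are 8 of 50686 genes counted. Tyrobp (also called DAP12) and Fcer1g (the Fc receptor gamma chain) are adaptors, Trem2 and Oscar are receptors, Syk and Btk are kinases, Blnk is a scaffold and Plcg2 is a phospholipase. Their RNA was measured in RAW264.7, an established mouse macrophage cell line, which can turn into osteoclasts under RANKL, the cytokine that binds RANK. The 10 groups held 2 libraries each. One group was untreated and collected at hour 0. The other 9 groups were collected after 4, 14 and 24 hours with RANKL alone (50 ng/ml), with I-BET alone (500 nM, an inhibitor of the BET bromodomain proteins that bind acetylated chromatin) or with both agents at these doses. Untreated cells exist at hour 0 only, so a change against them cannot be told apart from time in culture. All groups share this 1 line, and the labels do not say whether the 2 libraries of a group came from separate cultures, so p-values measure only the spread between these libraries. In bulk RNA, fewer cells of a type and less RNA per cell cannot be told apart.

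An ITAM is a short tyrosine motif in the cytoplasmic tail of Tyrobp and Fcer1g. Receptors with no signalling tail of their own pair with an adaptor in the membrane, Trem2 with Tyrobp and Oscar with Fcer1g. Src family kinases phosphorylate the motif, Syk docks on it and, through scaffolds such as Blnk and Tec family kinases such as Btk, activates Plcg2. The phospholipase releases calcium from stores, and calcium drives calcineurin and the transcription factor NFATc1, which osteoclast formation needs alongside RANK.

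Library totals ran from 19051780 to 62313792 counts, with untreated library 1 the shallowest. Untreated library 2 stood apart. The 6 genes that were chosen for a share at least 3 times higher there than in any other library, and at least 0.1% of its counts, held 9.62% of its counts, against 0.169% to 0.907% in the other 19 libraries. RPKM (counts scaled by gene length and library total) divide by that total, so tests used the counts with their own scaling. The labels' agents were checked on genes known to answer them. Acp5, the osteoclast phosphatase TRAP, had 7.77 and 18.0 RPKM untreated and 121 and 126 RPKM after 24 hours of RANKL. Hexim1, which BET inhibition is known to raise, had 16.8 and 18.1 RPKM untreated and 32.4 and 39.5 RPKM after 24 hours of I-BET. The summed level of 8 macrophage markers was 4799 to 4914 RPKM untreated, 1348 to 1577 after 24 hours of RANKL and 2475 to 2828 with both agents. Lyz2 carried most of that sum, at 3799 to 3996 RPKM untreated and 625 to 850 RPKM after 24 hours of RANKL. Of the 8 markers 6 fell, while Cd68 (-0.23 ± 0.12, adjusted p = 0.215) and Spi1 (0.33 ± 0.14, adjusted p = 0.126) were not called. The summed level of 8 osteoclast markers was 33.7 to 59.4 RPKM untreated, 231 to 294 after 24 hours of RANKL and 7.06 to 10.7 with both agents. Calcr and Itgb3 of that list stayed at or below 0.0741 RPKM in every library. Of 22 markers of B, T, NK and mast cells, fibroblasts, epithelium, endothelium and erythroid cells none reached 1 RPKM in any library. Of the B cell genes, Ms4a1 had 0 counts throughout, while Cd79a had counts in all 20 libraries, at 0.0122 to 0.183 RPKM.

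The promoters of 3 genes are shown. Trem2 fell under each agent, Oscar had its highest group mean under RANKL at 24 hours, and Plcg2 was lower under RANKL and higher under I-BET. The Oscar difference from untreated cells was not called, and the call for Plcg2 under I-BET alone did not hold with a library left out. Each window is the 250 bases before the RefSeq start (GRCm38.p6), read 5′ to 3′ on the gene's strand. Capitals mark matches, on either strand, to the letters CACGTG (an E-box, the motif of Myc with its partner Max), TGANTCA (AP-1) or GAGGAA (an ETS core, shown as TTCCTC on the opposite strand). The 3 motifs do not overlap in these windows.
Trem2, chr17:48346151-48346400, plus strand: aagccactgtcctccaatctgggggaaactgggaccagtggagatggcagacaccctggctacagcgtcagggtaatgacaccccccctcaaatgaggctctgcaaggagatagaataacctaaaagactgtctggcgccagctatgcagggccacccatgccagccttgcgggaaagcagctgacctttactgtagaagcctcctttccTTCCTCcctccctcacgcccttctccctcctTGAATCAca
Oscar, chr7:3616158-3616407, minus strand: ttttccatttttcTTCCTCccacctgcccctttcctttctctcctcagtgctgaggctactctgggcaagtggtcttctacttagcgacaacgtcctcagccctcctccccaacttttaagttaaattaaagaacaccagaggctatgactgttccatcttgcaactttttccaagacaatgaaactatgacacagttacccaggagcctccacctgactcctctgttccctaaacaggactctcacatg
Plcg2, chr8:117498025-117498274, plus strand: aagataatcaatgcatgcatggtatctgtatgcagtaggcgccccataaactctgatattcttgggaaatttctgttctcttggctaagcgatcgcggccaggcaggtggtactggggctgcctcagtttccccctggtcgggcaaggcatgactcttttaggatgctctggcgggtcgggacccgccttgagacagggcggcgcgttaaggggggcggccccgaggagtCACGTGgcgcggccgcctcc
The Trem2 window holds the AP-1 letters at positions -9 to -3 before the start and the ETS core at -40 to -35. The Oscar window holds the ETS core at -237 to -232, and the Plcg2 window the E-box at -20 to -15. Of 32817 windows of this length, 6.02% hold the E-box letters, 6.75% the AP-1 letters and 23.3% the ETS core. A match describes these letters and is neither a binding site nor a cause. The Fcer1g, Btk and Blnk windows hold none of the 3 motifs, 1 of 2 Syk windows holds the ETS core, and Tyrobp has no entry in that table.

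Per kilobase, the adaptors were by far the most abundant of the 8. Over the 20 libraries Tyrobp ran from 213 to 428 RPKM (median 345) and Fcer1g from 106 to 337 (median 219.5). Plcg2 followed with 30.5 to 56.4 RPKM (median 48.9), Btk with 25.6 to 43.5 (median 31.1) and Trem2 with 7.13 to 56.3 (median 20.4). Syk was lower at 3.80 to 9.96 RPKM (median 6.41), and Blnk at 1.92 to 5.64 (median 2.98). Oscar was near the limit of detection, at 0.00885 to 0.324 RPKM (median 0.0602) from 1 to 24 counts per library. Trem2 spanned a 7.89-fold range over libraries and Btk 1.70-fold, the widest and narrowest of the genes apart from Oscar, whose range rests on few counts. No exonic base of the 8 genes is shared with another gene in GENCODE M21 (mm10).

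**Figure D1:**
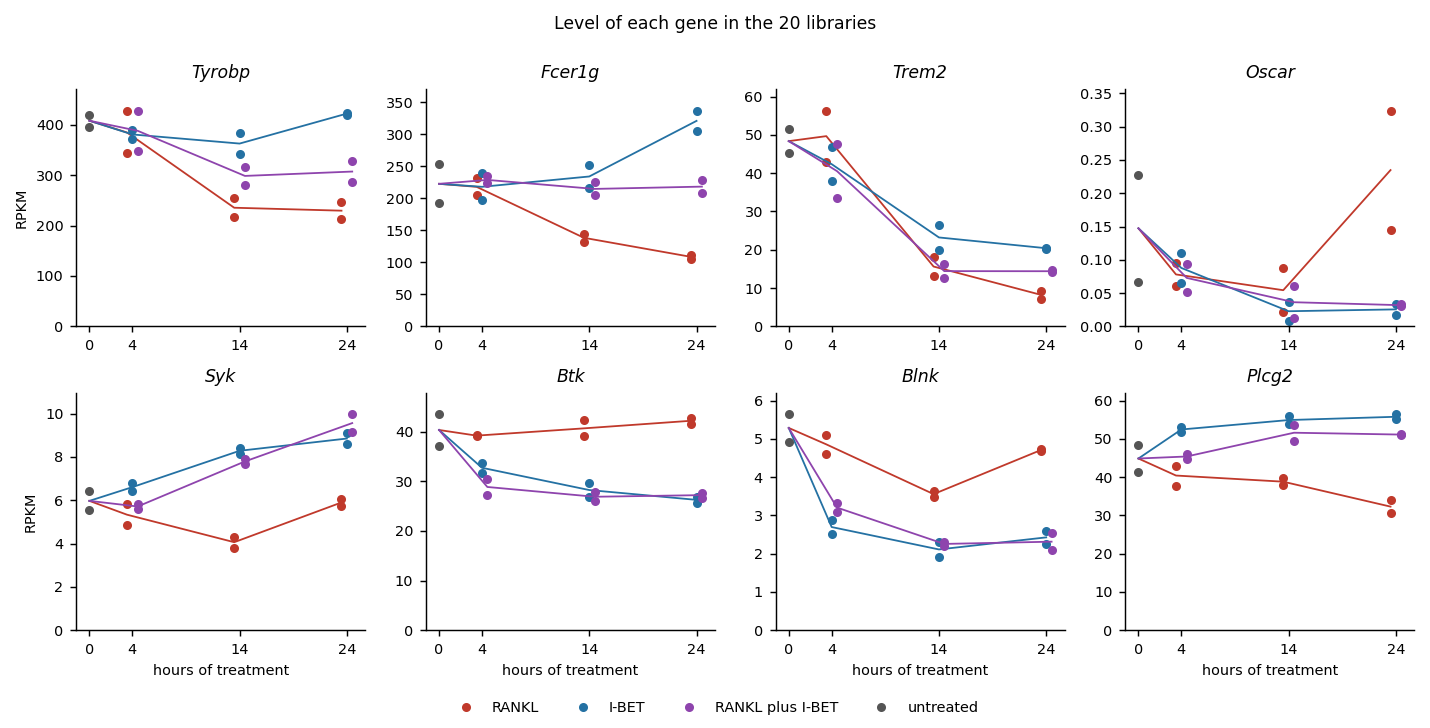
Level of each gene in RPKM (linear axes from 0, a different scale per panel) against hours of treatment, one point per library and lines through group means. Trem2 drops in all treated groups by 14 hours, while Btk and Blnk separate the groups with I-BET from those without, and Oscar is above 0.1 RPKM in both libraries only after 24 hours of RANKL.

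Tyrobp (chr7:30413788-30417577, plus strand) gives the adaptor that Trem2 and many other myeloid receptors use. Untreated cells had 419.6 and 396 RPKM, and cells given RANKL had 343 and 426 at 4 hours, 216 and 254 at 14 hours and 213 and 246 at 24 hours. Both late RANKL pairs lay below every library of the other 8 groups. The counts gave a log2 fold change against untreated of -0.79 ± 0.16 (SE) at 14 hours (adjusted p = 0.00365, edgeR) and -0.88 ± 0.16 at 24 hours (adjusted p = 0.00167). With both agents Tyrobp had 281 and 316 RPKM at 14 hours and 285 and 329 at 24 hours, between RANKL alone and I-BET alone. I-BET alone left 342 and 383 RPKM at 14 hours and 420.0 and 424 at 24 hours, and the last pair overlapped neither other treatment of that hour. I-BET added to RANKL gave 0.29 ± 0.16 at 14 hours (adjusted p = 0.235) and 0.39 ± 0.16 at 24 hours (adjusted p = 0.0955), neither of which passed the threshold of 0.05. With the replicate number as a block both passed (0.30, adjusted p = 0.00442, and 0.39, adjusted p = 0.000343).

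Fcer1g (chr1:171229572-171234365, minus strand) gives the adaptor of Oscar and of activating Fc receptors. It had 253 and 192 RPKM untreated, 231 and 204 after 4 hours of RANKL, 144 and 133 after 14 hours and 111 and 106 after 24 hours. The late RANKL libraries were the lowest of the 20, and the 2 hours did not overlap. The fall against untreated was -0.68 ± 0.11 on the log2 scale at 14 hours (adjusted p = 0.000703) and -1.07 ± 0.11 at 24 hours (adjusted p = 1.05e-05), or 0.475 times the untreated level. With I-BET added to RANKL the level stayed at 225 and 205 RPKM at 14 hours and 209 and 228 at 24 hours, inside the range of the untreated pair. Against RANKL alone Fcer1g was higher by 0.59 ± 0.11 at 14 hours (adjusted p = 0.00159) and by 0.98 ± 0.11 at 24 hours (adjusted p = 1.94e-05). I-BET alone took it to 337 and 305 RPKM at 24 hours, the highest of all groups. That rise of 0.46 ± 0.11 against untreated (adjusted p = 0.00988) was lost without untreated library 2 (adjusted p = 0.127) and without I-BET library 1 (adjusted p = 0.0756).

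Trem2 (chr17:48346401-48354147, plus strand), a lipid and ligand sensing receptor of macrophages and osteoclast precursors, had the largest falls of the 8 genes under RANKL. It had 45.2 and 51.5 RPKM untreated, 43.0 and 56.3 after 4 hours of RANKL, 13.05 and 18.2 after 14 hours and 7.13 and 9.37 after 24 hours. The log2 fold change against untreated was -1.63 ± 0.26 at 14 hours (adjusted p = 0.000630) and -2.60 ± 0.27 at 24 hours (adjusted p = 1.14e-05), which leaves 0.165 times the untreated level. I-BET alone had 37.9 and 46.8 RPKM at 4 hours, 19.98 and 26.5 at 14 hours and 20.5 and 20.3 at 24 hours. Against untreated cells of hour 0, Trem2 was therefore lower under I-BET too. Like the fall under RANKL, this cannot be told apart from time in culture. The changes under I-BET were -1.15 ± 0.26 at 14 hours (adjusted p = 0.00807) and -1.33 ± 0.26 at 24 hours (adjusted p = 0.00246). The 14 hour fall was lost without untreated library 2 (adjusted p = 0.0863) and without I-BET library 1 (adjusted p = 0.0981).

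Both agents together left Trem2 at 33.5 and 47.5 RPKM at 4 hours, 12.5 and 16.3 at 14 hours and 14.1 and 14.7 at 24 hours. At 14 hours these values overlapped RANKL alone (-0.16 ± 0.26, adjusted p = 0.721). At 24 hours they lay above RANKL alone and below I-BET alone, with no overlap on either side. The difference from RANKL alone was 0.77 ± 0.26 (adjusted p = 0.0405). It was lost when RANKL library 1 (adjusted p = 0.253) or either library with both agents was left out (adjusted p = 0.102 and 0.157). Against I-BET alone the difference of -0.50 ± 0.26 was not called (adjusted p = 0.952), but was with the block (-0.51, adjusted p = 0.0138), and the same held at 14 hours (-0.64, adjusted p = 0.416 without and 0.00133 with the block). At 4 hours the block alone called Trem2 lower with I-BET added to RANKL (-0.32, adjusted p = 0.0310) and with I-BET alone (-0.35, adjusted p = 0.0199). The second was lost when untreated library 2 was also left out (adjusted p = 0.0904).

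Oscar (chr7:3609813-3616157, minus strand), the osteoclast associated receptor that binds collagen, was barely detected. Its counts were 24 and 11 after 24 hours of RANKL, 8 and 5 untreated, 10 and 5 after 4 hours of RANKL and 8 and 2 after 14 hours. With both agents at 24 hours it had 3 counts in each library, and with I-BET alone 2 and 3. Both RANKL libraries of 24 hours lay above every other library apart from untreated library 1, which had 0.227 RPKM against their 0.324 and 0.146. The RANKL 24 hour group was also the only one with both libraries above the low-count limit of 0.225 CPM (counts scaled to a common library total), so Oscar entered the tests through the group where it was high. Against untreated, RANKL at 24 hours gave 0.77 ± 0.73 on the log2 scale (adjusted p = 0.540). Adding I-BET to RANKL at 24 hours gave -2.85 ± 0.80 (adjusted p = 0.0163), a call that was lost without RANKL library 1 (adjusted p = 0.145) or without either library with both agents (adjusted p = 0.0887 and 0.109). With the block, Oscar was also called between 14 and 24 hours of RANKL (2.05, adjusted p = 0.0208). It was called lower under I-BET alone at 14 hours (-2.70, adjusted p = 0.0145) and 24 hours (-2.45, adjusted p = 0.0177). Each of these comparisons holds libraries above the low-count limit, those of RANKL at 24 hours or untreated library 1. These calls therefore add no support.

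Syk (chr13:52583173-52648792, plus strand), the kinase that docks on phosphorylated ITAMs, dipped under RANKL and came back. It had 6.41 and 5.53 RPKM untreated, 5.83 and 4.84 after 4 hours of RANKL, 4.32 and 3.80 after 14 hours and 6.05 and 5.74 after 24 hours. The 14 hour RANKL libraries were the lowest of the 20, at -0.55 ± 0.08 on the log2 scale against untreated (adjusted p = 0.000373). The return from 14 to 24 hours was 0.49 ± 0.08 (adjusted p = 0.00534), lost without RANKL 14 hour library 2 (adjusted p = 0.0862), and the 24 hour level did not differ by the test from untreated (-0.06 ± 0.08, adjusted p = 0.680). The 4 hour difference of -0.23 ± 0.08 (adjusted p = 0.172) passed only with the block (adjusted p = 0.0292), and not when untreated library 2 was also left out (adjusted p = 0.160).

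Every group with I-BET for 14 or 24 hours had more Syk than any other group. Both agents gave 7.91 and 7.67 RPKM at 14 hours and 9.96 and 9.16 at 24 hours, and I-BET alone gave 8.41 and 8.15 and then 9.11 and 8.58. Added to RANKL, I-BET raised Syk by 0.89 ± 0.08 at 14 hours (adjusted p = 5.6e-06) and by 0.67 ± 0.08 at 24 hours (adjusted p = 4.24e-05). Alone it raised Syk by 0.39 ± 0.08 at 14 hours (adjusted p = 0.00636) and by 0.49 ± 0.08 at 24 hours (adjusted p = 0.000857). The 14 hour rise under I-BET alone was lost without untreated library 2 (adjusted p = 0.0585). At 4 hours Syk differed by -0.003 under I-BET alone and by 0.08 with I-BET added to RANKL, and neither difference was called.

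Btk (chrX:134542336-134583570, minus strand), a Tec family kinase that activates the phospholipase, was steady under RANKL and lower wherever I-BET was present. Untreated cells had 43.5 and 37.2 RPKM, and cells given RANKL had 39.2 and 39.2 at 4 hours, 42.2 and 39.1 at 14 hours and 41.5 and 42.8 at 24 hours. Its log2 fold changes against untreated were between -0.11 and 0.02, with adjusted p of 0.641 or above. I-BET alone gave 33.7 and 31.7 RPKM at 4 hours, 29.6 and 26.8 at 14 hours and 26.9 and 25.6 at 24 hours, and both agents gave 30.4 and 27.3, 27.8 and 26.0, and 27.7 and 26.7. No library with I-BET reached the lowest library without it. I-BET added to RANKL changed Btk by -0.46 ± 0.08, -0.64 ± 0.08 and -0.67 ± 0.08 at 4, 14 and 24 hours (adjusted p = 0.00144, 3.83e-05 and 2.01e-05). I-BET alone changed it by -0.45 ± 0.08, -0.60 ± 0.08 and -0.69 ± 0.08 (adjusted p = 0.00218, 0.000118 and 2.4e-05). These 6 falls were called in every fit with 1 library left out.

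Blnk (chr19:40928927-40994535, minus strand), the scaffold that brings Tec kinases and phospholipase together, had the same separation by I-BET on top of a dip under RANKL. It had 5.64 and 4.93 RPKM untreated, and 5.11 and 4.60, 3.63 and 3.49, and 4.68 and 4.74 after 4, 14 and 24 hours of RANKL. The 14 hour fall of -0.57 ± 0.12 was called (adjusted p = 0.00337) and the difference at 24 hours was not (-0.21 ± 0.12, adjusted p = 0.245). I-BET alone gave 2.88 and 2.52 RPKM at 4 hours, 2.30 and 1.92 at 14 hours and 2.59 and 2.26 at 24 hours. Both agents gave 3.09 and 3.32, 2.32 and 2.19, and 2.53 and 2.10. All 12 libraries with I-BET lay below all 8 without it. Alone, I-BET changed Blnk by -1.12 ± 0.12, -1.41 ± 0.12 and -1.20 ± 0.12 at 4, 14 and 24 hours (adjusted p = 7.01e-05, 4.47e-06 and 9.83e-06). Added to RANKL, it changed Blnk by -0.62 ± 0.12, -0.71 ± 0.12 and -1.06 ± 0.12 (adjusted p = 0.00355, 0.000629 and 1.51e-05). The rise of Blnk from 14 to 24 hours of RANKL (0.36 ± 0.12, adjusted p = 0.130) was called only with the block (adjusted p = 0.0128) and by DESeq2 (adjusted p = 0.0436).

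Plcg2 (chr8:117498291-117635140, plus strand), the phospholipase that turns the signal into calcium release, moved down under RANKL and up under I-BET. It had 48.3 and 41.4 RPKM untreated, and 43.0 and 37.8, 37.8 and 39.7, and 34.0 and 30.5 after 4, 14 and 24 hours of RANKL. The 24 hour RANKL libraries were the lowest of the 20, at -0.52 ± 0.08 against untreated (adjusted p = 0.000240). At 14 hours the difference of -0.20 ± 0.08 (adjusted p = 0.0801) was called only with the block (adjusted p = 0.0172) and by DESeq2 (adjusted p = 0.0158), as was that at 4 hours (-0.22 ± 0.08, adjusted p = 0.154, against 0.0269 and 0.0378). With untreated library 2 also left out, the block called Plcg2 at neither hour (adjusted p = 0.0572 at 14 hours and 0.0964 at 4 hours). I-BET alone gave 51.8 and 53.0 RPKM at 4 hours, 55.9 and 53.9 at 14 hours and 56.4 and 55.1 at 24 hours. With both agents the level was 46.0 and 44.7, 53.7 and 49.5, and 51.2 and 51.0 RPKM, above RANKL alone at each hour. I-BET added to RANKL raised Plcg2 by 0.36 ± 0.08 at 14 hours (adjusted p = 0.00326) and by 0.63 ± 0.08 at 24 hours (adjusted p = 3.15e-05). The rise under I-BET alone at 24 hours (0.24 ± 0.08, adjusted p = 0.0429) was lost with other size factors (adjusted p = 0.0622) and without any 1 of the 4 libraries compared (adjusted p = 0.123 to 0.206). At 14 hours it was called only with the block (0.21, adjusted p = 0.0198). With the block and without untreated library 2 neither was called (adjusted p = 0.126 at 14 hours and 0.0663 at 24 hours).

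Ranked by group mean, RANKL at 24 hours was the lowest of the 10 groups for Tyrobp, Fcer1g, Trem2 and Plcg2 and the highest for Oscar and Btk. Tyrobp at 24 hours of RANKL overlapped the 14 hour group, and the next group up, both agents at 14 hours, lay clear of them. For Fcer1g the 7 groups from I-BET at 14 hours down to both agents at 14 hours each overlapped their neighbour, with I-BET at 24 hours clear above and the 2 late RANKL groups clear below. For Trem2 the untreated group and the 3 groups of 4 hours overlapped in turn and stood clear above all later groups. Syk groups with I-BET for 14 or 24 hours did not overlap each other or any other group. For Btk the 4 groups without I-BET overlapped in turn and stood clear above I-BET at 4 hours. Plcg2 was highest in I-BET at 24 and 14 hours, which overlapped.

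At 4 hours RANKL changed none of the 8 genes in edgeR, with 2 at an unadjusted p under 0.05 and 1 called by DESeq2, while 3.91% of all 16042 genes tested were called. With the block 2 were called (Syk and Plcg2), and 0 when untreated library 2 was also left out. In the block fit with all libraries, 2325 of all genes tested were called at 4 hours, against 627 without the block. At 14 hours 5 of the 8 had fallen and 0 had risen, while 10.1% of all genes tested fell. The 5 were both adaptors, Trem2, Syk and Blnk. At 24 hours 4 had fallen and 0 had risen, while 10.9% of all genes tested fell and 8.04% rose. The 4 were both adaptors, Trem2 and Plcg2. The median log2 fold change of the 8 was -0.62 at 14 hours and -0.37 at 24 hours, against 0.03 and 0.05 over all genes tested. These calls held with each library left out in turn. From 4 to 14 hours of RANKL 5 genes fell (Tyrobp, Fcer1g, Trem2, Syk and Blnk), against 9.71% of all genes tested, and 3 when any 1 library was left out, with Fcer1g and Trem2 among the calls each time. From 14 to 24 hours Syk rose and Plcg2 fell (-0.31 ± 0.08, adjusted p = 0.0401), while 1.13% of all genes tested rose and 1.78% fell. With no low-count filter, Syk and Blnk were not called from 4 to 14 hours (adjusted p = 0.239 and 0.232), nor Syk and Plcg2 from 14 to 24 hours (0.0969 and 0.256). The Plcg2 fall was also lost without any 1 of the 4 libraries (adjusted p up to 0.286). With the block 6 were called there, adding falls of Fcer1g (-0.40, adjusted p = 0.00184) and Trem2 (-0.96, adjusted p = 1.34e-05) and rises of Oscar and Blnk. The block called 2707 of all genes tested there, against 466 without it, and the Oscar call adds no support.

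With I-BET added to RANKL, Btk and Blnk were lower at 4 hours and no gene was higher, while 6.46% of all genes tested were lower. At 14 hours Fcer1g, Syk and Plcg2 were higher and Btk and Blnk lower, with 10.8% of all genes tested higher and 11.2% lower. At 24 hours Fcer1g, Trem2, Syk and Plcg2 were higher and Btk, Blnk and Oscar lower, with 13.9% higher and 12.9% lower over all genes. Oscar entered this test only through the RANKL libraries of 24 hours, where it was high, so its call adds no support. The calls of Oscar and Trem2 were each lost in 3 of 4 fits with a library left out. The median log2 difference of the 8 genes was -0.06, 0.07 and 0.51 at the 3 hours, against 0.00, -0.03 and -0.05 over all genes. This comparison shares its RANKL libraries with the comparison to untreated cells. With no low-count filter the rise of Plcg2 at 14 hours was lost (adjusted p = 0.103) and one of Tyrobp at 24 hours was added (adjusted p = 0.021). Side by side at 24 hours, Fcer1g went -1.07 under RANKL and 0.98 with I-BET added, Plcg2 -0.52 and 0.63, Trem2 -2.60 and 0.77, and Tyrobp -0.88 and 0.39, the last of which was not called. Syk went -0.06 and 0.67, Btk 0.02 and -0.67, Blnk -0.21 and -1.06, and Oscar 0.77 and -2.85. For these 4 genes the first value was not called.

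**Figure D2:**
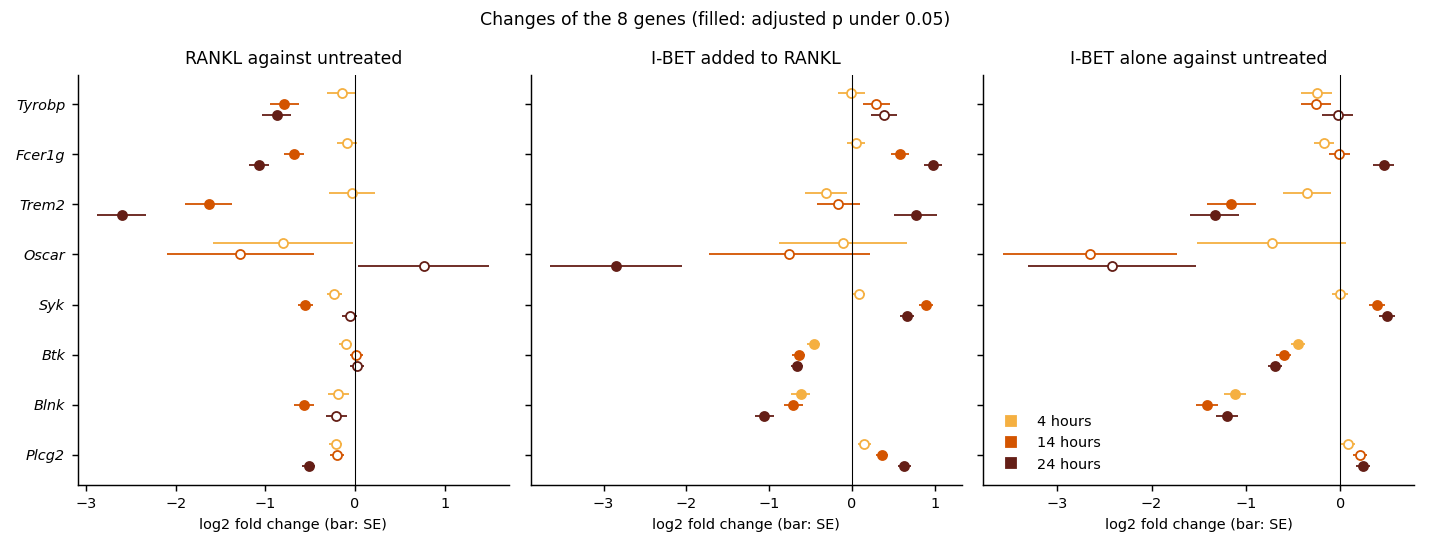
Log2 fold change of each gene with its SE (bar) at 4, 14 and 24 hours in 3 comparisons, on separate horizontal scales. Filled points passed an adjusted p of 0.05 in edgeR. Under RANKL the filled points of Tyrobp, Fcer1g, Trem2, Syk, Blnk and Plcg2 lie left of 0, and those of Btk and Blnk lie left of 0 in both I-BET panels.

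The changes under I-BET alone are against untreated cells of hour 0 and cannot be told apart from time in culture. I-BET alone lowered Btk and Blnk at 4 hours, while 6.48% of all genes tested were lower. At 14 hours it lowered Btk, Blnk and Trem2 and raised Syk, with 8.37% of all genes lower and 5.29% higher. At 24 hours it lowered the same 3 and raised Fcer1g, Syk and Plcg2, with 10.2% lower and 7.5% higher. With the block, Tyrobp was also called lower at 4 hours (-0.25, adjusted p = 0.0199) and 14 hours (-0.26, adjusted p = 0.0137). Together with the block calls given above, the count went from 2 to 4 at 4 hours and from 4 to 7 at 14 hours. Over all genes tested the block called 4651 and 4786, against 1686 and 2192 without it. Oscar is among the 7, and its call adds no support. Without untreated library 2 the 14 hour calls were 2. With no low-count filter the rises of Syk at 14 hours (adjusted p = 0.116) and Plcg2 at 24 hours (adjusted p = 0.364) were lost.

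RANKL in the presence of I-BET, compared with I-BET alone, called none of the 8 genes at 4, 14 or 24 hours in edgeR, while 0.517%, 0.904% and 0.262% of all genes tested were called. At an unadjusted p under 0.05 there were 1, 1 and 2, and DESeq2 called 0, 0 and 1, the last being Fcer1g (adjusted p = 0.00148). At 24 hours the log2 differences were -0.46 ± 0.16 for Tyrobp (adjusted p = 0.581), -0.55 ± 0.11 for Fcer1g (adjusted p = 0.0695) and -0.50 ± 0.26 for Trem2. With the block all 3 of these passed, with an adjusted p of 0.00162 for Tyrobp and 0.000387 for Fcer1g. The block called 473 of all genes tested at 24 hours, against 42 without it.

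Whether the I-BET effect itself differed with RANKL was tested as an interaction. Without RANKL, that effect was taken against untreated cells of hour 0. Time in culture therefore enters the difference, and this test cannot tell it apart from an influence of RANKL. At 4 hours none of the 8 genes was called in edgeR, with 1 at an unadjusted p under 0.05 and 0 by DESeq2, and 0% of all genes tested were called (702 at an unadjusted p under 0.05, and 70 by DESeq2). At 14 hours the difference was 0.51 ± 0.12 for Syk (adjusted p = 0.0327) and 0.71 ± 0.16 for Blnk (adjusted p = 0.0345), while 2.28% of all genes tested were called with a positive difference. With untreated cells of hour 0 as the reference without RANKL, Syk rose more with I-BET added to RANKL, and Blnk fell less. Both calls were lost without any 1 of the 8 libraries involved, with adjusted p of 0.0517 to 0.145 for Syk and 0.0508 to 0.187 for Blnk. At 24 hours the difference was 2.10 ± 0.37 for Trem2 (adjusted p = 0.00304) and 0.39 ± 0.11 for Plcg2 (adjusted p = 0.0495), against 3.94% of all genes tested. The Trem2 difference lay between a fall of -1.33 without RANKL and a rise of 0.77 with it. The call of that rise was lost in 3 of 4 fits with a library left out. The difference itself was called with each of the 8 libraries left out, at 1.911 to 2.355. That of Plcg2 was lost without any 1 of them (adjusted p = 0.0613 to 0.155). With the block, which called 1876 and 2941 of all genes at 14 and 24 hours (446 and 843 without), 5 and 4 of the 8 were called. Those added were Tyrobp (0.56, adjusted p = 0.0015, and 0.42, adjusted p = 0.0117), Fcer1g (0.59, adjusted p = 0.00107, and 0.52, adjusted p = 0.00257) and, at 14 hours, Trem2 (1.0, adjusted p = 0.000222). With no low-count filter the calls of Syk (adjusted p = 0.462), Blnk (0.207) and Plcg2 (0.405) were lost and Trem2 at 14 hours was added. DESeq2 called Fcer1g as well, at 14 hours (adjusted p = 0.00937) and 24 hours (adjusted p = 0.03).

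**Figure D3:**
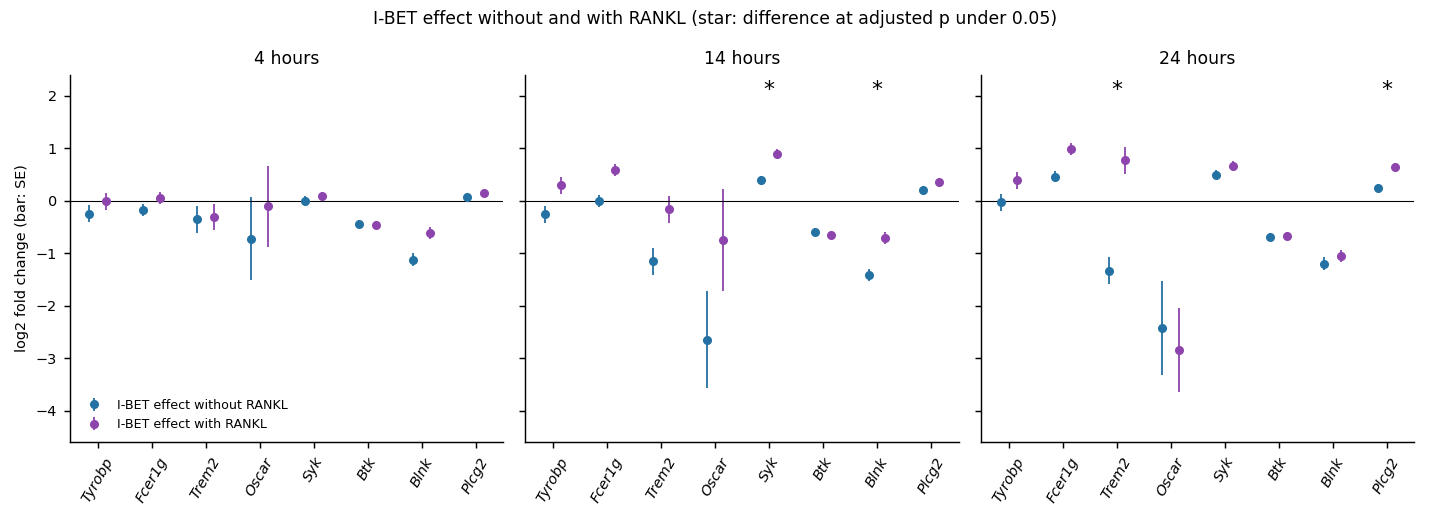
Log2 fold change by I-BET (± SE) in cells without RANKL and in cells with RANKL, for each gene at 4, 14 and 24 hours. A star marks a difference between both effects at adjusted p under 0.05 in edgeR, which holds for Syk and Blnk at 14 hours and for Trem2 and Plcg2 at 24 hours.

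Among other receptors that pair with Tyrobp or Fcer1g, 15 of 20 listed genes were tested, and at 24 hours of RANKL 10 had fallen and 1 had risen, against 10.9% and 8.04% of all genes tested. Their median log2 fold change was -1.89 against 0.05 over all genes tested. The activating Fc receptors Fcgr1 (-3.78 ± 0.48, adjusted p = 6.72e-05) and Fcgr3 (-3.60 ± 0.24, adjusted p = 2.58e-07) fell most among those with a mean of at least 1 CPM. Fcgr3 went from 5.01 to 7.14 RPKM untreated to 0.493 to 0.531 RPKM, and it is also 1 of the 8 macrophage markers whose sum fell. The single rise was Siglec15, a receptor of osteoclasts that uses Tyrobp, which lies outside the naming rule and is named after its values were seen. It had 26 and 21 counts untreated and 152 and 84 after 24 hours of RANKL (1.67 ± 0.49, adjusted p = 0.0283), a call lost without untreated library 2 or without RANKL library 1 (adjusted p up to 0.27). I-BET added to RANKL left 4 and 1 counts (-5.84 ± 0.65, adjusted p = 1.66e-05), which held with each library left out. In that comparison 4 paired receptors were higher (Fcgr1, Fcgr3, Cd300ld and Cd300c2) and 6 lower, against 13.9% and 12.9% of all genes tested. Clec4n and Clec4d, lectin receptors for fungal and mycobacterial ligands, were lower, with changes of -4.89 ± 0.78 and -1.41 ± 0.15 (adjusted p = 0.000359 and 1.31e-05). Of these 10 calls 6 were lost when some 1 library was left out, and the rise of Fcgr1 (1.48 ± 0.46, adjusted p = 0.0268) was among them, without RANKL library 1 or library 2 with both agents (adjusted p up to 0.218). I-BET alone lowered 12 of the 15 at 14 hours and at 24 hours and raised 0, against 8.37% and 10.2% of all genes tested that were lower. The interaction at 24 hours was called and positive for 8 of the 15, against 3.94% of all genes tested. It too cannot be told apart from time in culture.

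Of 7 tested kinases of the Src and Tec families, beyond Btk, 4 fell and 2 rose at 24 hours of RANKL, against 10.9% and 8.04% of all genes tested. Their median was -0.69, against 0.05 over all genes. Src, which osteoclasts need to resorb bone, had 1.27 and 0.580 RPKM untreated and 10.3 and 5.01 RPKM after 24 hours (3.06 ± 0.50, adjusted p = 0.000581). Lck, at 0.394 to 0.518 RPKM untreated, also rose (1.30 ± 0.29, adjusted p = 0.00561), but not without untreated library 1 (adjusted p = 0.0686). The myeloid kinase Fgr fell (-2.52 ± 0.20, adjusted p = 1.25e-06), as did Lyn (-0.78 ± 0.10, adjusted p = 6.38e-05) and Fyn (-0.69 ± 0.09, adjusted p = 0.000122). With I-BET added, Src was lower (-4.21 ± 0.52, adjusted p = 3.99e-05) at 0.560 and 0.284 RPKM, as was Lck (-1.61 ± 0.28, adjusted p = 0.000697). Lyn (0.68 ± 0.10, adjusted p = 0.000146), Fyn (0.58 ± 0.09, adjusted p = 0.000349) and Fgr were higher. The call for Fgr (0.73 ± 0.20, adjusted p = 0.0138) was lost without RANKL library 1 or library 1 with both agents (adjusted p up to 0.197).

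Of 20 scaffolds and effectors downstream of Syk, 6 fell and 2 rose at 24 hours of RANKL, with a median of -0.03 against 0.05 over all genes tested. Of all genes tested 10.9% fell and 8.04% rose, so that the rises were near the share over all genes. Of these 8 calls 4 were lost when some 1 library was left out, falls as well as both rises. Ptk2b, a calcium-activated focal adhesion kinase, fell (-1.74 ± 0.11 on the log2 scale, adjusted p = 1.74e-07), from 12.9 to 16.3 RPKM untreated to 4.10 to 4.88 RPKM, and Rasgrp3 fell (-1.02 ± 0.19, adjusted p = 0.00152). The rises were Lcp2, the scaffold SLP-76 (0.67 ± 0.17, adjusted p = 0.0139), and Bcl10 (0.42 ± 0.12, adjusted p = 0.0253). Lcp2 was lost without untreated library 2 or RANKL library 1 (adjusted p up to 0.188), and Bcl10 without either untreated library or RANKL library 2 (adjusted p up to 0.267). With I-BET added, 6 were higher and 3 lower, against 13.9% and 12.9% of all genes tested, so the count lower was near that share. Of these 9 calls 3 were lost when some 1 library was left out. With the replicate block, which called 7475 of all genes tested in either direction, 8 were higher and 5 lower. Ptk2b (1.62 ± 0.11, adjusted p = 2.69e-07) and Prkcd (0.79 ± 0.11, adjusted p = 0.000115) were higher, and the adaptors Lat2 (-1.29 ± 0.17, adjusted p = 6.09e-05) and Lcp2 (-0.96 ± 0.17, adjusted p = 0.000838) lower.

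Of 8 genes of calcium release and entry, 3 fell and 1 rose at 24 hours of RANKL, against 10.9% and 8.04% of all genes tested, and 3 of these 4 calls were lost when some 1 library was left out. With the replicate block, which called 5901 of all genes tested in either direction, 4 fell and 2 rose. The store calcium channel Itpr3 fell (-0.96 ± 0.13, adjusted p = 0.000143), as did the entry channel Orai1 (-1.10 ± 0.27, adjusted p = 0.0116) and Stim1, the sensor that opens it (-0.43 ± 0.10, adjusted p = 0.00742), while Orai2 rose (0.39 ± 0.11, adjusted p = 0.0279). The call for Orai1 was lost without either untreated library or RANKL library 1 (adjusted p up to 0.0969), that for Stim1 in 2 of 4 such fits (adjusted p up to 0.0785), and that for Orai2 in 3 (adjusted p up to 0.314). With I-BET added to RANKL, Orai1 (1.70 ± 0.27, adjusted p = 0.000355) and Stim1 (0.55 ± 0.10, adjusted p = 0.000838) were higher. Orai2 was lower (-0.41 ± 0.11, adjusted p = 0.0165), a call lost in 3 of 4 fits with a library left out (adjusted p up to 0.235). Of all genes tested 13.9% were higher there and 12.9% lower. As for every list here, this comparison shares its RANKL libraries with the comparison to untreated cells. Without RANKL library 2 the changes of Orai2 were 0.20 under RANKL and -0.21 with I-BET added. With the replicate block, which called 7475 of all genes tested there, 4 of the 8 were higher and 1 lower.

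The 21 inhibitory receptors and phosphatases tested can oppose ITAM signals. At 24 hours of RANKL 11 fell and 1 rose, against 10.9% and 8.04% of all genes tested. The median of the 21 was -0.74, against 0.05 over all genes tested. Of these 12 calls 3 were lost when some 1 library was left out. Siglece (-2.89 ± 0.28, adjusted p = 6.74e-06) and Cd300lf (-2.73 ± 0.31, adjusted p = 2.42e-05) fell most. The rise was Ptpn22, a phosphatase of Src and Syk family kinases (1.33 ± 0.35, adjusted p = 0.0151), lost without untreated library 2 or RANKL library 1 (adjusted p up to 0.153). With I-BET added, 6 were higher and 6 lower, against 13.9% and 12.9% of all genes tested. Of these 12 calls 2 were lost when some 1 library was left out. With the replicate block, which called 7475 of all genes tested in either direction, 10 were higher and 7 lower. Sirpa, the receptor of CD47, was higher (1.77 ± 0.11, adjusted p = 1.52e-07), at 115 to 134 RPKM against 34.6 to 36.5 RPKM with RANKL alone, and so was Pag1 (1.48 ± 0.10, adjusted p = 3.11e-07). Clec4a2 (-4.75 ± 0.33, adjusted p = 3.08e-07) and Ptpn22 (-3.38 ± 0.37, adjusted p = 1.57e-05) were lower. The interaction at 24 hours, which cannot be told apart from time in culture, was called and positive for 6 of the 21. Of all genes tested 3.94% were. The fall of 6 of the 8 macrophage markers under RANKL moves with these receptor falls, and its part in them was not tested.

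**Figure D4:**
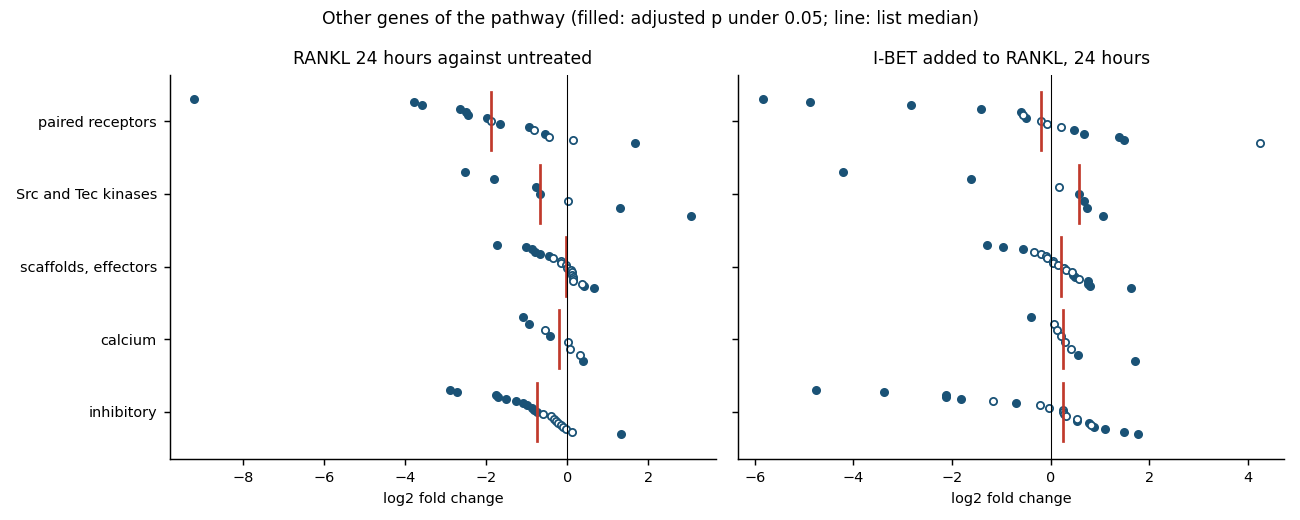
Log2 fold change of each tested gene of the 5 pathway lists after 24 hours of RANKL (left) and with I-BET added to RANKL at 24 hours (right), with the list median as a red line. Filled points passed an adjusted p of 0.05 in edgeR. The point at the far left is Siglech, with 0 counts in both RANKL libraries of 24 hours, so that its fitted value depends on the prior count and does not set the median.

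The genes whose group means ran most like each of the 8 were found by Pearson correlation of log2 CPM over the 10 groups, among 9450 genes with a mean of at least 5 CPM. The values describe likeness over groups that share libraries, depth and treatments. Close to Tyrobp were Lrrc8c (0.975) and Fam107b (0.968). Closest to Fcer1g were Gid8 (0.982), Runx1 (0.978) and Lamp2 (0.968), and to Trem2 Mef2a (0.984), Smpdl3a (0.984) and Cadm1 (0.983). Oscar, from few counts, ran closest to Bbs7 (0.974), Phkg2 (0.928) and Txndc17 (0.919). Syk ran closest to Tspyl1 (0.989), Hacl1 (0.983) and Aldoc (0.979), and Btk to Eif2ak2 (0.985), Lrfn4 (0.98) and Txndc15 (0.978). Closest to Blnk were Mdfic (0.984), Tmem156 (0.979) and Angpt2 (0.972), and to Plcg2 Stim1 (0.985), Man1c1 (0.981) and Sumf1 (0.979). Among the 8 themselves the highest values were 0.909 for Btk with Blnk, 0.873 for Tyrobp with Fcer1g and 0.847 for Fcer1g with Plcg2, and the lowest was -0.808 for Btk with Plcg2.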

How the data were processed

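RNA was measured in 20 libraries. Per the labels' protocols, RNA was taken with a NucleoSpin kit, poly(A) selected, made into libraries with a NEBNext Ultra kit and sequenced as paired reads. Per the submitters' processing notes, FastQC, STAR 2.5.3a, DESeq2 1.16.1 and GRCm38 (mm10) were used. Which tool counted the reads, and whether it used strand, is not given in the sources used here. The authors deposited 2 tables, one of raw counts and one of RPKM. The first holds 50686 genes and the second 42748. For 14491 genes with counts in every library, the deposited RPKM equals the count over a gene length and the library total. The implied length varied by at most 7.17e-14 (relative) between libraries, so for these genes both tables hold the same data. For the 8 genes described here that length equals the exonic length in GENCODE M21.

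The counts were analysed here with edgeR 4.0.16 in R 4.3.3, using TMM scaling, the filterByExpr low-count filter (which left 16042 genes), 1 mean per group, 10 residual degrees of freedom and robust quasi-likelihood F tests. Each SE given is the absolute log2 fold change divided by the square root of the F statistic. Adjusted p is Benjamini-Hochberg over all genes tested in a comparison, called under 0.05, and 17 comparisons were made. The test was tested on simulated data. Each test was repeated with DESeq2 1.42.0, RLE size factors, all genes kept, a replicate block, leaving out each library, and the block with untreated library 2 left out. A group then holds 1 library, taken to vary as the remaining groups do. Libraries of the same number deviated together from their group means in all 45 pairs of groups (correlation 0.221 to 0.596, median 0.454). The block therefore takes the numbers to pair the libraries. The main tests hold no block and ignore this pairing. The pairing comes from the data and the replicate numbers in the labels, which name no batch.

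The genes and the wider pathway lists were chosen with earlier results of these data known. Named genes are the 8 in every comparison and, from each list in the 2 comparisons at 24 hours, up to 2 called rises and 2 called falls with a mean of at least 1 CPM. The 3 most alike genes per member (mean of at least 5) and a few label checks were also named. Other genes named, where 5 or fewer were called, were chosen after their values were seen. A few genes that this rule names are not reported here.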

Additional observations from a re-analysis of the deposited data

Results flagged for a closer look

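The I-BET effect differed between cells with and without RANKL, by the interaction test in edgeR, for 2 of the 8 genes at 14 hours and 2 at 24 hours, where 2.28% and 3.94% of all genes tested had a called positive difference. For Trem2 at 24 hours the effect with RANKL minus that without was 2.1 on the log2 scale (SE 0.37, adjusted p = 0.00304). I-BET gave a fall from 45.2 and 51.5 RPKM untreated to 20.5 and 20.3 without RANKL. With RANKL it gave a rise from 7.13 and 9.37 RPKM to 14.1 and 14.7. The call of that rise was lost in 3 of 4 fits with a library left out. Syk at 14 hours differed by 0.509 (SE 0.12, adjusted p = 0.0327), and Blnk at 14 hours by 0.708 (SE 0.16, adjusted p = 0.0345). Plcg2 at 24 hours differed by 0.394 (SE 0.11, adjusted p = 0.0495). The last 3 were lost in all 8 fits with a library left out. The untreated libraries enter each of these differences, and they were collected at hour 0. The differences therefore cannot be told apart from time in culture.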

How the results depend on the processing

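No called value changed its direction under any alternative. Of 136 gene tests 46 were called. DESeq2 lost 0 of them and added 8, RLE size factors lost 1, the fit with no low-count filter lost 10 and added 5, and 14 were lost when some 1 library was left out. The replicate block lost 0 and added 25, each given with its result above, and changed no other call of the 8 genes. With untreated library 2 also left out, the block could be compared in 72 tests with 25 calls, of which it lost 1 (Plcg2 under I-BET at 24 hours, adjusted p = 0.0663) and to which it added 9. Counts of the 8 genes called that moved by over 1.5 times were as follows. RANKL at 4 hours gave 0, then 2 with the block and 1 by DESeq2. I-BET at 4 hours gave 2, then 4 with the block. I-BET at 14 hours gave 4, then 7 with the block and 2 to 4 with a library left out. RANKL under I-BET at 14 hours gave 0, then 1 with the block and 1 with no filter, and at 24 hours 0, then 3 with the block, 1 by DESeq2 and 1 with no filter. The interaction at 14 hours gave 2, then 5 with the block, 5 with the block and untreated library 2 left out, 1 with no filter and 0 to 0 with a library left out. That at 24 hours gave 2, then 4, 4, 1 and 1 to 1. RANKL from 4 to 14 hours gave 5, then 3 with no filter and 3 to 3 with a library left out. RANKL from 14 to 24 hours gave 2, then 6 with the block, 5 by DESeq2, 1 with no filter and 0 to 1 with a library left out. The cause of these moves was not tested, apart from fewer libraries in the last kind. Over all genes tested, calls with the replicate block rose from 627 to 2325 for RANKL at 4 hours, from 2948 to 5827 for RANKL at 14 hours, from 3032 to 5901 for RANKL at 24 hours, from 1828 to 4507 for I-BET added to RANKL at 4 hours, from 3538 to 6454 for I-BET added to RANKL at 14 hours, from 4299 to 7475 for I-BET added to RANKL at 24 hours, from 1686 to 4651 for I-BET at 4 hours, from 2192 to 4786 for I-BET at 14 hours, from 2839 to 5804 for I-BET at 24 hours, from 83 to 493 for RANKL under I-BET at 4 hours, from 145 to 1056 for RANKL under I-BET at 14 hours, from 42 to 473 for RANKL under I-BET at 24 hours, from 0 to 195 for the interaction at 4 hours, from 446 to 1876 for the interaction at 14 hours, from 843 to 2941 for the interaction at 24 hours, from 2844 to 6206 for RANKL from 4 to 14 hours, from 466 to 2707 for RANKL from 14 to 24 hours. With the block and untreated library 2 left out they were 1174 for RANKL at 4 hours, 2617 for I-BET at 4 hours, 66 for the interaction at 4 hours, 1183 for the interaction at 14 hours, 1970 for the interaction at 24 hours. DESeq2 gave 1051 for RANKL at 4 hours, 186 for RANKL under I-BET at 4 hours, 407 for RANKL under I-BET at 14 hours, 131 for RANKL under I-BET at 24 hours, 70 for the interaction at 4 hours, 840 for the interaction at 14 hours, 953 for RANKL from 14 to 24 hours. The fit with no filter gave 176 for RANKL under I-BET at 4 hours, 316 for RANKL under I-BET at 14 hours, 236 for RANKL under I-BET at 24 hours, 139 for the interaction at 4 hours, 1286 for the interaction at 24 hours, 810 for RANKL from 14 to 24 hours. RLE size factors gave 4 for the interaction at 4 hours. Leaving out a library gave 155 to 399 for RANKL at 4 hours, 1571 to 1894 for RANKL at 14 hours, 1730 to 2349 for RANKL at 24 hours, 817 to 974 for I-BET added to RANKL at 4 hours, 2154 to 2572 for I-BET added to RANKL at 14 hours, 516 to 996 for I-BET at 4 hours, 1188 to 1339 for I-BET at 14 hours, 1642 to 1897 for I-BET at 24 hours, 12 to 36 for RANKL under I-BET at 4 hours, 15 to 52 for RANKL under I-BET at 14 hours, 2 to 14 for RANKL under I-BET at 24 hours, 0 to 9 for the interaction at 4 hours, 200 to 339 for the interaction at 14 hours, 541 to 979 for the interaction at 24 hours, 1489 to 1770 for RANKL from 4 to 14 hours, 172 to 273 for RANKL from 14 to 24 hours. Oscar is limited by depth, with 1 to 24 counts per library.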
